A study of Homo sapiens with 6 samples.

Results

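The 35 genes described here encode the machinery that cuts, matures, exports, modifies and loads small RNAs and transfer RNAs (tRNAs): angiogenin and its inhibitor, the microRNA processing enzymes, export receptors, Argonaute and GW182 proteins, subunits of RNase P, tRNA end-processing, splicing and ligation enzymes, and tRNA modification enzymes. They were taken by gene symbol from a table of 58174 genes, and all 35 were found. All 35 also passed the filter on low counts, which left 19040 genes. The libraries came from PC9, an established human lung adenocarcinoma line. In the knockdown group (n = 3) the cells were treated with an antagomir, a chemically modified antisense oligonucleotide, against the tRNA-derived small RNA tsRNA-5001a. In the control group (n = 3) they were treated with a negative control antagomir. All libraries were of total RNA from the same line, and dose and treatment time were not found in the labels. It is not stated that libraries of 1 group were grown as independent cultures, and the tests therefore reflect variation among the libraries sequenced, possibly technical only. The gene counts do not measure tsRNA-5001a, so the knockdown itself was not checked.

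tRNA-derived small RNAs are fragments cut from tRNAs. In stressed cells angiogenin, a secreted ribonuclease, cuts mature tRNAs in the anticodon loop, and the ribonuclease inhibitor RNH1 binds and blocks it. Other fragments come from the ends of precursor or mature tRNAs, which RNase P trims at the leader and ELAC2 at the trailer. Modified bases set by enzymes such as NSUN2 and TRDMT1 protect tRNAs from cleavage. Some fragments are bound by Argonaute proteins, the carriers of microRNAs, which DROSHA and DICER1 cut from hairpin precursors. RNA polymerase III makes the tRNAs.

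Of the 35 genes, 0 passed an adjusted p of 0.05 in edgeR's quasi-likelihood test in either direction, where 1.17% of all genes tested did (1.10% higher and 0.0735% lower). DESeq2 also called 0 of the 35, against 3.69% of the 19021 genes to which it gave an adjusted p. At an unadjusted p under 0.05 there were 2, RNH1 (lower, as 6.71% of all genes were) and XPOT (higher, as 9.77% were), against 16.5% of all genes in either direction. Knockdown and control libraries did not overlap for 5 of 35, or 14.3%, against 24.3% of all genes. XPOT and TNRC6C lay higher (13.4% of all genes did), and RNH1, DGCR8 and RTCB lay lower (10.8% of all genes did). The log2 fold changes, knockdown over control, ran from -0.51 to 0.39 with a median of 0.06, beside a median of 0.05 over all genes. Above 0 lay 19 of the 35 (54.3%, against 55.9% of all genes), and 16 lay below. A p that misses the threshold does not show equal levels, so 95% confidence intervals from the fit on counts are given. They do not cover the choice of unit, and some differences in another deposited unit, given below, lay outside them. For 20 of 35 genes (57.1%, against 33.1% of all genes) the interval lay within a 1.5-fold change in either direction, and for 32 of 35 (91.4% against 65.1%) within 2-fold. The intervals of ANG, AGO1 and TRDMT1 reached past 2-fold. The 35 genes were more abundant than most, at a median of 4.87 log2 CPM, which are counts scaled to a common library total, against 3.72.

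**Figure D1:**
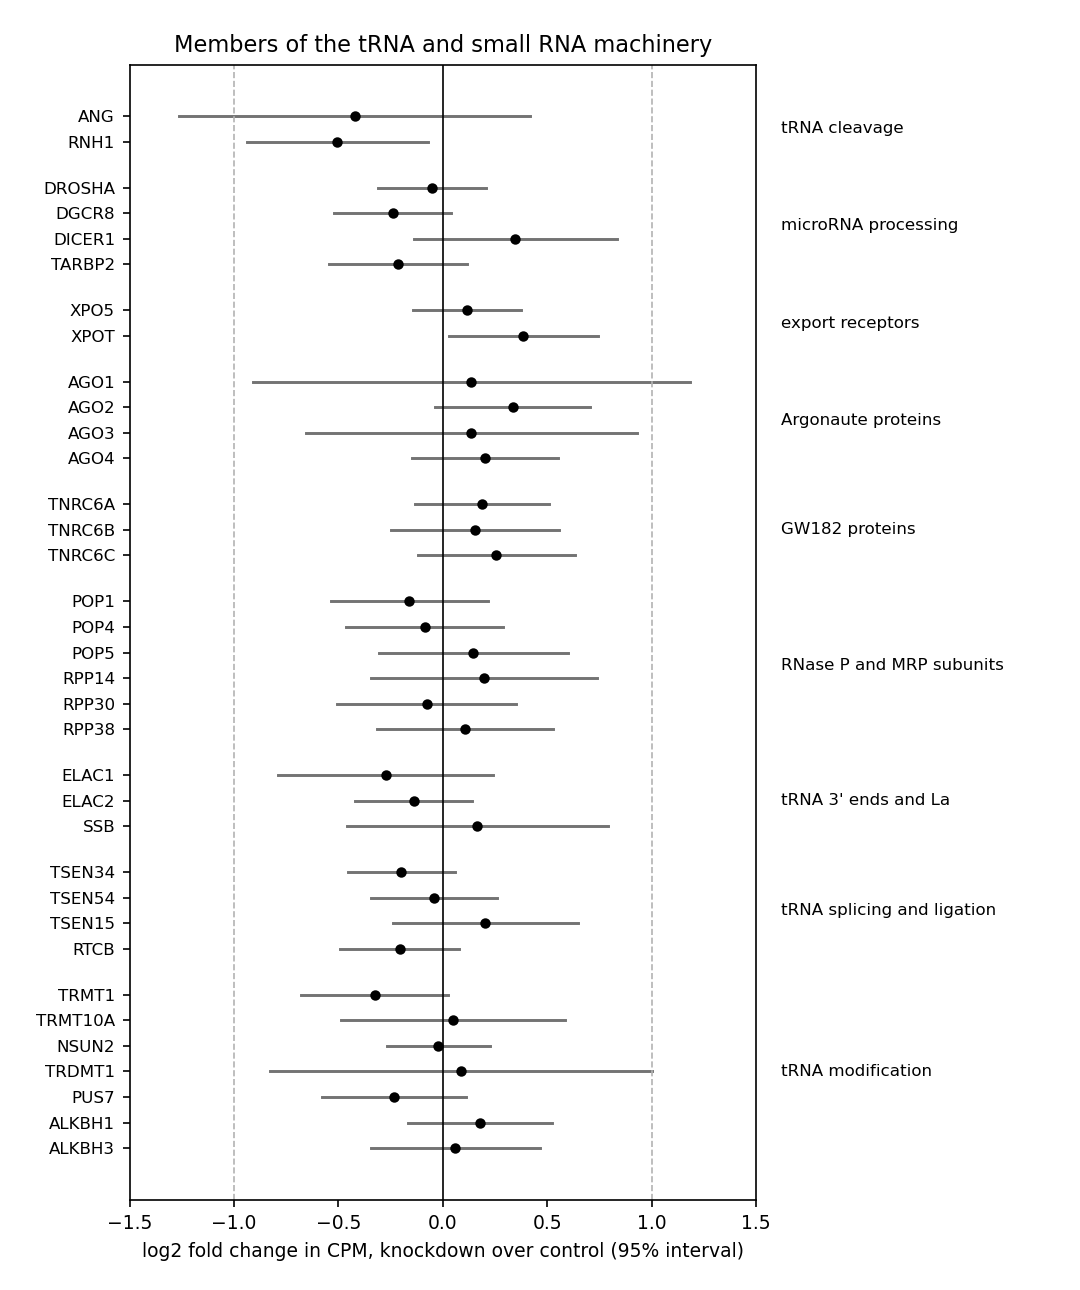
Log2 fold change of each of the 35 genes, knockdown over control, with its 95% confidence interval from the edgeR fit, grouped by role; n = 3 libraries a group. The estimates lie between -0.51 (RNH1) and 0.39 (XPOT), and the intervals of ANG, AGO1 and TRDMT1 are among the widest.

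In RefSeq, 2 of these genes hold annotated microRNAs: DGCR8, which encodes the RNA-binding partner of DROSHA, and DICER1. The 5 mature sequences are shown because their hairpins lie inside the genes whose counts follow, with the seed (bases 2 to 8) in capitals. The 5 seeds all differ. The first lies in an untranslated exon of DGCR8, the next pair in its coding sequence, and the last pair in an intron of DICER1 (GRCh38.p14).
hsa-miR-3618, chr22:20085797-20085818, plus strand: uGUCUACAuuaaugaaaagagc
hsa-miR-1306-5p, chr22:20086072-20086093, plus strand: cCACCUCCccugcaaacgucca
hsa-miR-1306-3p, chr22:20086112-20086129, plus strand: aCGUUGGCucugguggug
hsa-miR-3173-5p, chr14:95137961-95137982, minus strand: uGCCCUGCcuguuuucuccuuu
hsa-miR-3173-3p, chr14:95137923-95137944, minus strand: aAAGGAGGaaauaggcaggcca
The table has a row for each hairpin gene. MIR3618 and MIR1306 were each listed at 1 count in all 6 libraries and MIR3173 at 0, so these rows hold no comparison, and reads of the hairpin and of its host cannot be told apart.

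ANG and RNH1 both had estimates below 0. RNH1 (ENSG00000023191; chr11:494512-507300, minus strand), which encodes the ribonuclease inhibitor, had the lowest estimate and the lowest p of the 35. It was at 70.4, 54.6 and 69.8 CPM in knockdown libraries 1 to 3 and at 76.1, 118 and 83.1 CPM in control libraries 1 to 3. On CPM all knockdown libraries lay below all controls, though not in the other deposited unit given below. The highest CPM, in control library 2, stood well above the rest. Its log2 fold change was -0.51 (standard error 0.19; 95% interval -0.94 to -0.07), with an unadjusted p of 0.0269 and an edgeR adjusted p of 0.247. Without control library 2 the estimate was -0.30.

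ANG (ENSG00000214274; chr14:20684177-20698971, plus strand), which encodes angiogenin, was one of the least abundant of these genes. It was at 2.64, 3.71 and 2.02 CPM after knockdown and at 5.78, 2.98 and 2.43 CPM in the controls. The groups overlapped, and control library 1 held the highest value. The log2 fold change was -0.42 (standard error 0.37; 95% interval -1.26 to 0.42; edgeR adjusted p 0.606), and without control library 1 it was 0.04. The log2 ratio of RNH1 to ANG, taken from the deposited TPM, which are scaled to gene length and library total, was 4.01 ± 0.54 after knockdown and 4.22 ± 0.95 in the control (SD, n = 3 each), a difference of -0.21 with an exact two-sided permutation p of 0.7. The smallest p that 3 libraries against 3 allow is 0.1.

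In all, 10 of the 35 genes share exon bases with another gene of at least 10 counts on average. On opposite strands these include XPO5 with POLR1C, SSB with METTL5 and RPP38 with NMT2. Reads in such shared bases cannot be told apart if strand was not used in counting. On the same strand there are 3, which are ANG, RPP14 and ALKBH3. ANG shares exon bases with RNASE4, which encodes another secreted ribonuclease of the same family, and with AL163636.2. RefSeq lists 3 start windows for ANG, of which 2 are also listed for RNASE4. The 250 bases before one of these shared starts are shown, since both genes are annotated to start there (GRCh38.p14, chr14:20688514-20688763, plus strand); the capitals mark the motif CCAAT, searched on both strands as CCAAT or ATTGG.
ANG and RNASE4 shared upstream window: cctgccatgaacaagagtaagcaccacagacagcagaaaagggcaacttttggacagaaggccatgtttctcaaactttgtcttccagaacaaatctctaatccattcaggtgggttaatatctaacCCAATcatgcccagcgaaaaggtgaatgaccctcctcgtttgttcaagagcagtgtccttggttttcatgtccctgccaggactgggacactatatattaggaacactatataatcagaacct
The motif occurs in 32.0% of the 35116 RefSeq windows of this length, so its presence here is a description only. Counts for AL163636.2 were 59, 74 and 37 after knockdown and 0, 39 and 70 in the controls. The library in which this gene had 0 counts, control library 1, was the one in which ANG was highest. With the counts of ANG and AL163636.2 summed, the log2 fold change was -0.14 (edgeR adjusted p 0.846). With RNASE4 added it was -0.10 (edgeR adjusted p 0.811).

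Of the 4 microRNA processing genes, 1 estimate lay above 0 and 3 below, although DROSHA lay above 0 with scaling by library size only and all 4 did on TPM. DGCR8 (ENSG00000128191; chr22:20080232-20111877, plus strand) was at 33.6, 30.3 and 31.9 CPM after knockdown and at 37.08, 37.07 and 39.0 CPM in the controls. The libraries were even within each group, and all 3 knockdown values lay below all controls. For DGCR8 the log2 fold change was -0.24 (standard error 0.12; 95% interval -0.52 to 0.04), with an edgeR adjusted p of 0.372. On log2(TPM + 1) the DGCR8 difference was 0.054, just above that interval, and the groups overlapped on TPM. DGCR8 shares exon bases with TRMT2A on the other strand, and no source used here says whether the counting used strand.

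DROSHA, the nuclear enzyme that makes the first microRNA cut, was at 66.9, 67.7 and 68.8 CPM after knockdown and at 72.6, 65.8 and 72.3 CPM in the controls. Its interval from counts, -0.31 to 0.21 on the log2 scale, was one of the narrowest, but on log2(TPM + 1) the difference was 0.42. DICER1 (ENSG00000100697; chr14:95086228-95158010, minus strand), which makes the second cut in the cytoplasm, was at 27.1, 43.0 and 28.2 CPM after knockdown and at 30.3, 22.2 and 24.7 CPM in the controls. Only knockdown library 2 lay above every control. The difference was 0.35 on the log2 scale (standard error 0.21; edgeR adjusted p 0.457), and without knockdown library 2 it was 0.09. TARBP2, a double-stranded RNA-binding partner of DICER1, was at 26.6 ± 3.23 CPM after knockdown and 30.8 ± 1.78 CPM in the control.

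The log2 ratio of DICER1 to DROSHA on TPM was -2.35 ± 0.33 after knockdown and -2.20 ± 0.21 in the control, a difference of -0.15 (exact two-sided permutation p 0.7). Taken from counts the same ratio differed by 0.38 in the other direction (exact permutation p 0.3). The direction of this ratio therefore depended on the deposited unit.

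Both export receptors had estimates above 0. XPOT (ENSG00000184575; chr12:64404350-64451127, plus strand) encodes exportin-t, which carries mature tRNAs out of the nucleus, and had the highest estimate of the 35. It was at 119.0, 176 and 143 CPM after knockdown and at 109, 107 and 118.7 CPM in the controls. The groups did not overlap, though knockdown library 1 lay within 1 CPM of control library 3. XPOT had a log2 fold change of 0.39 (standard error 0.16; 95% interval 0.03 to 0.74), with an unadjusted p of 0.0363 and an edgeR adjusted p of 0.271. Without knockdown library 2 the estimate was 0.22. XPO5, which exports microRNA precursors, was at 115 ± 2.73 CPM against 106 ± 7.76 CPM in the control.

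**Figure D2:**
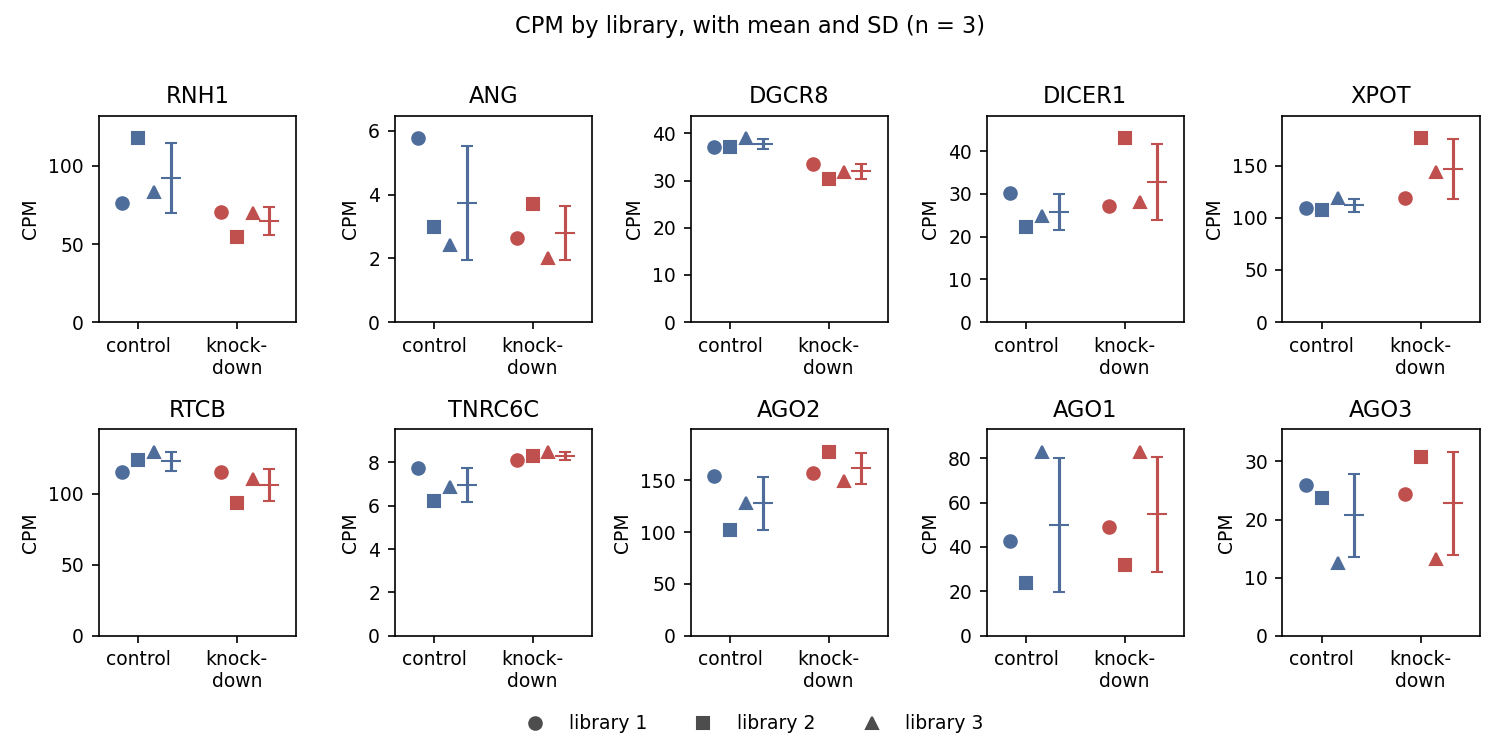
CPM in each library for 10 genes (circles, library 1; squares, library 2; triangles, library 3), with the group mean and SD (n = 3); each vertical axis starts at 0. The 5 genes RNH1, DGCR8, RTCB, XPOT and TNRC6C have groups that do not overlap, while AGO1 is highest and AGO3 lowest in library 3 of both groups.

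All 4 Argonaute genes had estimates above 0, from 0.14 to 0.34, and 0 of 4 passed the test. Leaving out 1 library turned AGO1 to -0.30 (knockdown library 3) or -0.20 (control library 2), and AGO3 to -0.15 (knockdown library 2) or -0.13 (control library 3). AGO2, the family's main slicing enzyme, was at 157, 178 and 149.7 CPM after knockdown and at 154, 102 and 128 CPM in the controls. The groups overlapped only through control library 1. The log2 fold change was 0.34 (standard error 0.16; 95% interval -0.04 to 0.71; edgeR adjusted p 0.348). AGO4 was at 28.5 ± 2.74 CPM against 24.7 ± 3.03 CPM, a log2 fold change of 0.20. Without control library 2 the estimates were 0.19 for AGO2 and 0.11 for AGO4, and without knockdown library 2 that of AGO4 was also 0.11.

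AGO1 and AGO3 were uneven between libraries, and library 3 stood apart in both groups. AGO1 was at 49.02, 32.0 and 83.0 CPM in knockdown libraries 1 to 3 and at 42.5, 23.8 and 82.9 CPM in control libraries 1 to 3. AGO3 was at 24.4, 30.8 and 13.2 CPM after knockdown and at 25.9, 23.7 and 12.6 CPM in the controls. In each group, library 3 was thus the highest for AGO1 and the lowest for AGO3. Both genes lie on the plus strand of chromosome 1, AGO1 at chr1:35869808-35930528 and AGO3 at chr1:35930718-36072500, with 189 bases between them.

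The replicate numbers are not stated to pair the libraries. With the number as a block, the standard error of AGO1 went from 0.46 to 0.15 and that of AGO3 from 0.35 to 0.17. Their log2 fold changes were then 0.21 and 0.12 (edgeR adjusted p 0.570 and 0.790). For other genes the standard error rose with the block, as for RNH1 (0.19 to 0.22) and DGCR8 (0.12 to 0.14). An unadjusted edgeR p under 0.05 was found for 0 of the 35 genes with the block, against 2 without it. With the counts of both genes summed, the log2 fold change was 0.14 (edgeR adjusted p 0.828). On TPM, which are scaled to length, AGO2 made up 52.7 ± 3.49% of the summed TPM of the 4 Argonaute genes after knockdown and 50.9 ± 4.28% in the control. The difference of 1.77 percentage points was within the spread of the libraries (exact two-sided permutation p 0.5). Relative to its library, the log2 ratio of count to TPM ranged over 0.96 for AGO1 and 1.44 for AGO3. These shares therefore do not differ from counts by a fixed length alone.

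The 3 GW182 genes, whose proteins bind Argonautes and recruit the deadenylases that shorten target messages, all had estimates above 0. TNRC6C (ENSG00000078687; chr17:77959240-78108835, plus strand) was at 8.11, 8.30 and 8.50 CPM after knockdown and at 7.75, 6.20 and 6.89 CPM in the controls. The knockdown libraries were close together and all above the controls. For TNRC6C the estimate was 0.26 on the log2 scale (standard error 0.16; 95% interval -0.12 to 0.63; edgeR adjusted p 0.474). TNRC6C-AS1, an antisense gene that shares exon bases with it, had between 1043 and 1425 counts per library. Reads in the shared bases cannot be told apart if strand was not used. TNRC6A and TNRC6B had log2 fold changes of 0.19 and 0.15, and without control library 2 these were 0.092 and 0.0046. Without knockdown library 2 that of TNRC6B was 0.076, and without knockdown library 3 that of TNRC6A was 0.12. TNRC6A made up 76.5 ± 3.41% of the summed TPM of the 3 genes after knockdown and 76.7 ± 7.87% in the control (difference -0.21 percentage points; exact two-sided permutation p 1). Taken from counts, its share was 63.4 ± 3.94% and 63.5 ± 2.06%, so the spread of the controls depended on the unit.

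RNase P and the related RNase MRP share protein subunits, 6 of which are in this set. Their log2 fold changes lay between -0.16 (POP1, the largest subunit) and 0.20 (RPP14), with 3 above 0 and 3 below (POP4 and RPP30 also lay above 0 with library size only, and all 6 on TPM), and 0 of 6 passed the test. POP4, POP5, RPP30 and RPP38 lay between -0.09 and 0.15. RPP14 shares exon bases on the same strand with HTD2, a mitochondrial fatty acid synthesis gene, whose counts were 201, 246 and 157 after knockdown and 44, 202 and 123 in the controls. With both summed, the log2 difference was 0.32 (edgeR adjusted p 0.566).

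The trailer of a precursor tRNA is cut by tRNase Z, encoded by ELAC2 and by its short paralog ELAC1, and is bound by the La protein, encoded by SSB. ELAC2 was at 70.5 ± 7.07 CPM after knockdown and 77.6 ± 2.11 CPM in the control, and ELAC1 at 4.09 ± 0.354 against 4.95 ± 1.17 CPM. SSB was at 28.6, 67.6 and 44.4 CPM after knockdown and at 44.1, 37.6 and 43.7 CPM in the controls. Knockdown libraries 1 and 2 were the lowest and the highest of all 6. Its log2 fold change was 0.16, and -0.21 without knockdown library 2.

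The set holds 4 genes for the splicing of intron-containing tRNAs: TSEN15, TSEN34 and TSEN54, subunits of the endonuclease, and RTCB, the ligase that joins the cut ends. RTCB (ENSG00000100220; chr22:32387582-32412255, minus strand) was at 115.1, 93.5 and 110.3 CPM after knockdown and at 115.3, 124 and 129 CPM in the controls. The groups did not overlap, but the nearest pair differed by less than 1 CPM. The log2 fold change was -0.21 (standard error 0.13; 95% interval -0.49 to 0.08; edgeR adjusted p 0.45), and without knockdown library 2 the estimate was -0.13. TSEN34, a catalytic subunit, was the most abundant of the 35 per length, at 332 ± 15.1 TPM after knockdown and 325 ± 10.3 TPM in the control. Its CPM was 381 ± 16.9 against 437 ± 40.7, a log2 fold change of -0.20. TSEN54 and TSEN15 had log2 fold changes of -0.04 and 0.20, and TSEN54 lay above 0 with library size only.

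Among the 7 tRNA modification genes, 4 estimates lay above 0 and 3 below, with NSUN2 above 0 when scaled by library size only and on TPM. TRMT1 (ENSG00000104907; chr19:13104902-13117567, minus strand), a guanosine dimethyltransferase, was at 39.96, 29.3 and 33.4 CPM after knockdown and at 46.3, 39.0 and 43.4 CPM in the controls. Only knockdown library 1 lay within the range of the controls. TRMT1 differed by -0.33 on the log2 scale (standard error 0.15; 95% interval -0.68 to 0.03; edgeR adjusted p 0.335), and by -0.50 without knockdown library 1. PUS7, a pseudouridine synthase, had a log2 fold change of -0.23.

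The cytosine methyltransferase NSUN2 was, after TSEN34, the next most abundant of the 35 per length, at 144 ± 16.7 TPM against 122 ± 8.29 TPM in the control. On counts it was at 187 ± 10.9 CPM after knockdown and 190 ± 7.003 CPM in the control. The interval of its log2 fold change (-0.02) was -0.27 to 0.22. On log2(TPM + 1) the NSUN2 difference was 0.23, just above that interval. TRDMT1, the other cytosine methyltransferase, was the least abundant per length in the control, at 1.58 ± 0.378 TPM. Its CPM was 2.11, 2.83 and 2.89 after knockdown and 3.96, 2.23 and 1.18 in the controls, so that the controls alone spanned the knockdown range. The demethylases ALKBH1 and ALKBH3 and the guanosine methyltransferase TRMT10A had log2 fold changes of 0.18, 0.06 and 0.05. ALKBH3 shares exon bases on the same strand with the pseudogene SEC14L1P1. Counts of SEC14L1P1 were 136, 86 and 126 after knockdown and 58, 54 and 56 in the controls.

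**Figure D3:**
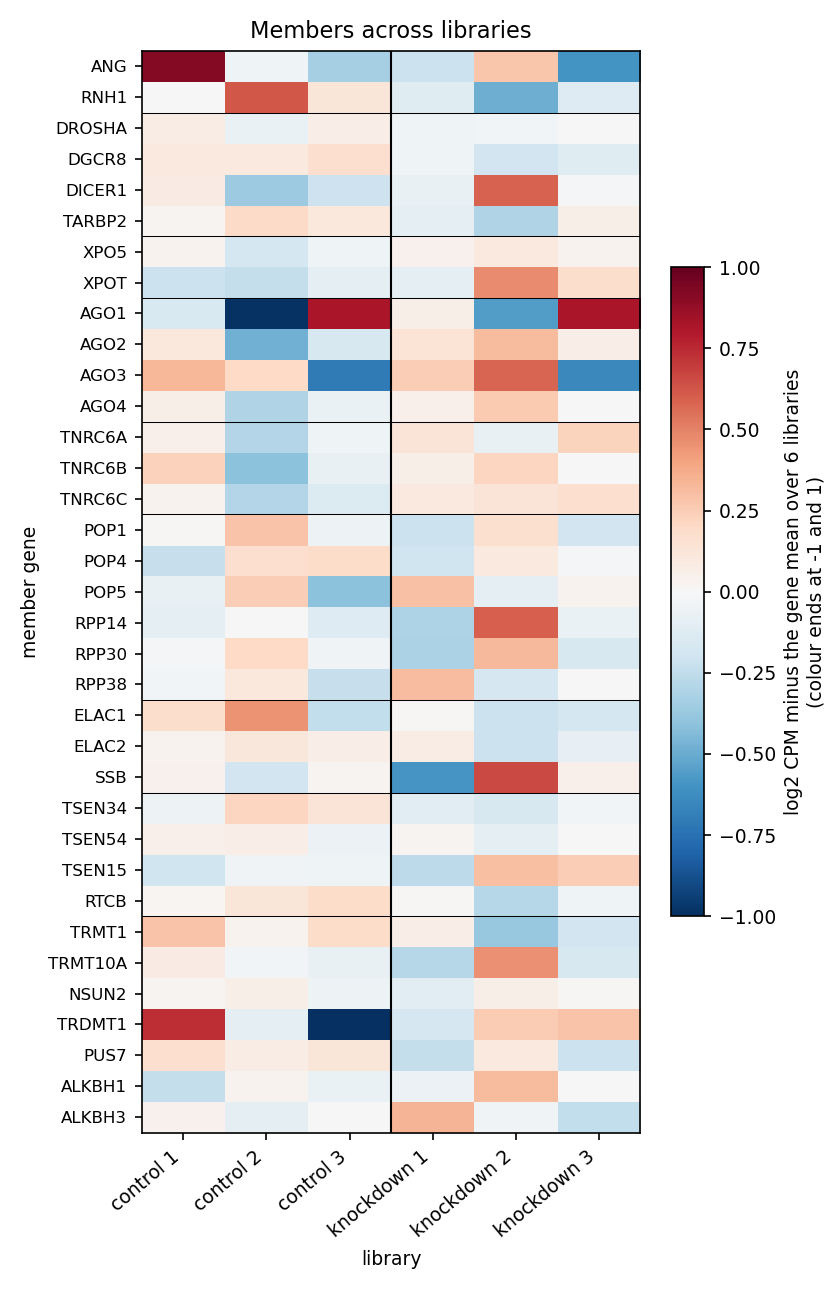
Log2 CPM of each gene in each library, relative to the gene's mean over the 6 libraries, ordered by role. Knockdown library 2 is the highest or the lowest for 21 of the 35 genes, and AGO1 and AGO3 are opposite in library 3 of both groups.

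Knockdown library 2 lay at an extreme more often than the other libraries. It was the highest for 13 of the 35 genes and the lowest for 8, and so at an extreme for 21 of 35, against 54.6% of all genes. Control library 2 was the highest for 7 and the lowest for 10, or 48.6% against 41.1% of all genes. Without knockdown library 2 the median log2 fold change of the 35 was -0.07. Library totals were 32342017 to 40066223 counts, lowest in knockdown library 2, and the fit's biological coefficient of variation was 22.9%. Summed TPM of 7 epithelial markers was 12130 to 15696 after knockdown and 13199 to 13927 in the control, and that of 6 fibroblast markers was 15.5 to 26.3 against 10.5 to 13.9. Of the fibroblast markers LUM was at 0 throughout, COL1A2 and COL3A1 were under 1 TPM, and PDGFRB rose (log2 fold change 2.92, edgeR adjusted p 0.00502). Summed immune markers ran from 65.5 to 81.3 against 53.8 to 67.0 TPM, with 4 of 6 under 1 TPM in every library, and endothelial markers from 16.95 to 24.4 against 12.1 to 18.6 TPM. The part of these markers in the results was not tested. In bulk libraries, a change in the share of cells that express a marker and a change in its RNA per cell cannot be told apart.

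The deposited TPM gave another picture from the counts. For a gene of fixed length the ratio of count to TPM differs between libraries by the same factor for all genes. Among the 34 of these genes with at least 50 counts in each library, the log2 ratio, relative to its library, ranged over a median of 0.28 between libraries, against 0.20 for 13395 genes. It ranged over more than 1 for AGO3 (1.44) and TNRC6B (1.28), 5.88% of these genes against 3.21% of all. On log2(TPM + 1), 31 of 35 differences lay above 0, with a median of 0.25 beside 0.21 over all genes, and 12 genes below 0 on counts lay above 0 on TPM. The differences of DROSHA (0.42), XPO5 (0.40) and XPOT (0.88) lay above the upper ends of their intervals from counts (0.21, 0.37 and 0.74). Those of DGCR8 (0.054), TSEN54 (0.267) and NSUN2 (0.230) lay just above theirs (0.040, 0.261 and 0.225). Libraries did not overlap on TPM for 8 of 35, all higher, against 30.0% of all genes (27.0% higher and 2.95% lower). These were XPO5, DROSHA, XPOT, TNRC6A, ALKBH1, TSEN54, AGO2 and RPP38. Of the genes that did not overlap on CPM, only XPOT is among them, and RNH1, DGCR8, RTCB and TNRC6C overlapped on TPM. limma on this scale called 0 of 35, against 2.09% of all genes. XPOT came nearest, with a difference of 0.88 (standard error 0.20; limma adjusted p 0.0647; 0.0647 to 0.544 over all alternatives).

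**Figure D4:**
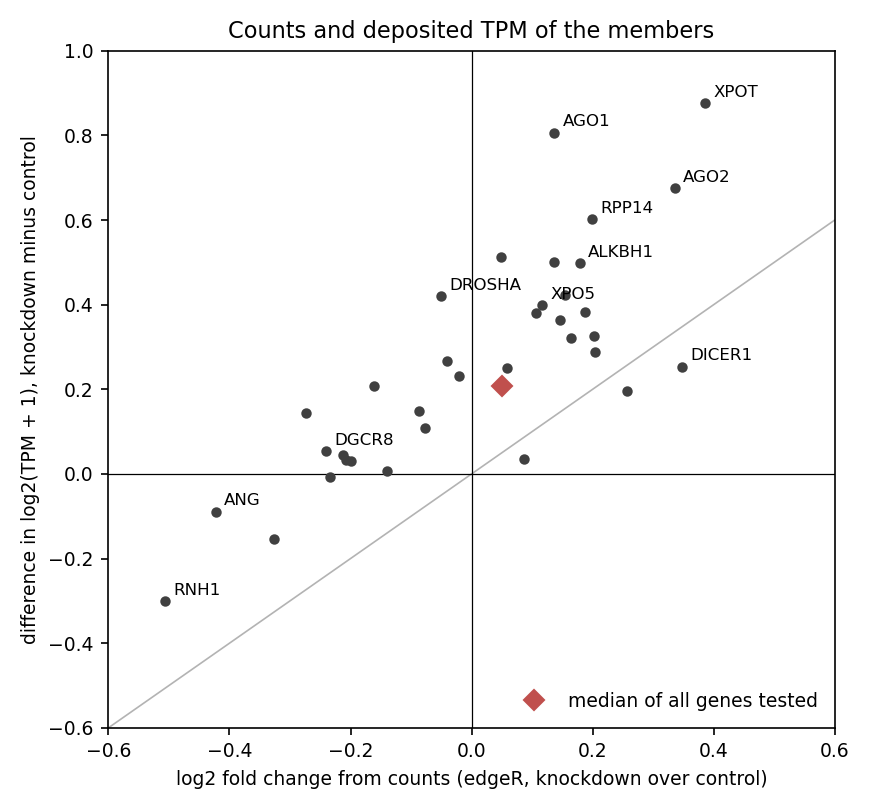
Difference between knockdown and control for each of the 35 genes on deposited TPM (log2(TPM + 1), vertical axis) against the log2 fold change on counts (horizontal axis). On counts 19 genes lie above 0 (54.3%, against 55.9% of all genes tested). On TPM 31 do, where the median over all genes tested is also above 0, at 0.21. XPOT is high on both and RNH1 low on both.

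Partner genes of these pathways were taken from 6 lists of 158 genes, of which 153 were tested. Of the 153 genes 1 rose and 0 fell, where 1.10% of all genes tested rose and 0.0735% fell. An unadjusted p under 0.05 was found for 9.80%, and 19.6% had groups that did not overlap, against 16.5% and 24.3% of all genes. Among 20 partners in microRNA biogenesis and silencing, LIN28A rose. LIN28A binds the let-7 precursor and blocks its processing. It was at 1.45, 2.68 and 1.97 CPM after knockdown and at 0.535, 0.434 and 0.655 CPM in the controls, with every knockdown library above every control. Its log2 fold change was 1.90 (standard error 0.33; edgeR adjusted p 0.0399). It passed under 5 of 15 other settings, with adjusted p from 0.000906 to 0.167 over the settings, and under none that left out a library. Those it passed were other scalings of the same fit, DESeq2 and a stricter filter. That filter kept this low-count gene only through its knockdown libraries. The median of the 20 was -0.02, with 10 above 0. The 12 endonuclease genes had a median of 0.30, with 9 above 0 and 0 past the test. The lowest p among them was that of SAMD9, an interferon-inducible gene whose product cuts tRNA, at 47.4 ± 14.5 CPM after knockdown and 24.7 ± 3.67 CPM in the control (log2 fold change 0.94, edgeR adjusted p 0.125).

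In the other lists 0 genes passed. The remaining 11 genes of RNase P, RNase MRP and tRNA ends had a median of -0.10, with 2 above 0. HSD17B10, a subunit of mitochondrial RNase P, had the lowest p of that list (log2 fold change -0.40, edgeR adjusted p 0.288). The 12 partners in splicing and ligation had a median of -0.15, with 4 above 0, and RTRAF (C14orf166 in the table), a subunit of the ligase complex, had the lowest p (log2 fold change -0.25, edgeR adjusted p 0.382). Of 68 modification genes 33 lay above 0, with a median of 0.00, and TRMT13, a tRNA ribose methyltransferase, had the lowest p (log2 fold change 0.61, edgeR adjusted p 0.215). Of 30 genes of RNA polymerase III transcription 12 lay above 0, with a median of -0.06. The lowest p was that of MAF1, the repressor of RNA polymerase III, at 155 ± 21.97 CPM after knockdown and 200 ± 12.8 CPM in the control (log2 fold change -0.36, edgeR adjusted p 0.246).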

How the data were processed

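RNA of 6 PC9 libraries was sequenced on the Illumina Xten, mapped to a reference genome and counted per gene, per the labels' protocols. The deposited table holds gene counts, TPM and FPKM for each library. No source used here names the aligner, the counting program, its strand setting or the gene lengths. The submitters' processing notes name hg19, but positions of 96.8% of shared genes, and of 34 of the 35 members (not TSEN15), are identical to GENCODE on GRCh38, so that build is used. Sequences are from RefSeq (GRCh38.p14).

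The deposited counts entered edgeR 4.0.16 under R 4.3.3 (quasi-likelihood F-test, group only, TMM scaling, filterByExpr with a minimum of 10 counts, Benjamini-Hochberg adjustment over 19040 genes, threshold 0.05), a test checked on simulated data. CPM use TMM-scaled totals. Other settings used DESeq2 1.42.0 and limma 3.58.1, with limma also on log2(TPM + 1) for the deposited TPM. Deposited FPKM entered only the ratios as an alternative. Shares and ratios used exact two-sided permutation tests. Libraries of a group differed by more than sampling noise (chi-square per degree of freedom 33.6 to 85.3).

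Members and lists were chosen with earlier results of these data known. Values per library are given for members past the test or with groups that do not overlap, for ANG and RNH1, and for the 3 highest and 3 lowest estimates, and in addition for DROSHA, AGO1, AGO3, SSB and TRDMT1, chosen after their values were seen; of each pathway list, genes past the test or otherwise the gene of lowest p are named. Markers of other cell types were looked up the same way.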

Additional observations from a re-analysis of the deposited data

How the results depend on the processing

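None of the 35 genes passed the test under any of the 15 settings run. Of the 35, 13 kept 1 sign under all of them (AGO2, AGO4, ALKBH1, DICER1, PUS7, RNH1, TNRC6A, TNRC6B, TNRC6C, TRMT1, TSEN15, XPO5 and XPOT), and 22 did not. The count of genes differing over the whole table, 223, was 147 without a filter, 143 with a stricter filter, 701 by DESeq2, 397 by limma on log2(TPM + 1), and 64 to 114 when 1 library was left out. Over all genes, the deviations from the group mean of libraries with the same replicate number were nearly uncorrelated (0.01, -0.08 and -0.03). A value over all genes cannot exclude pairing. For AGO1 the order of the libraries by number was the same in both groups. For AGO3 only the lowest library had the same number in both. AGO1 and AGO3 were chosen after their values were seen, so they cannot show whether the numbers pair the libraries. With the number as a block 34 genes differed, 0 of them in the pathway lists. Pathway genes past the test numbered 0 without a filter, by limma-voom and on TPM, and 0 to 1 when a library was left out. By DESeq2 they numbered 2 of 153 (LIN28A and SAMD9), where 3.69% of all genes with an adjusted p passed.

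Members with groups that do not overlap numbered 8 with library size only (25.9% of all genes), 4 without a filter (17.1% of all genes), 8 on TPM, and 7 to 13 when 1 library was left out, where 2 libraries face 3 and up to 39.2% of all genes do not overlap. Their median log2 fold change was 0.18 with library size only, where that of all genes was 0.17, 0.25 on TPM, and -0.069 to 0.087 when 1 library was left out. With library size only the sign turned for DROSHA (0.072), POP4 (0.041), RPP30 (0.050), TSEN54 (0.083) and NSUN2 (0.10), and with the stricter filter for NSUN2 (0.0039). On log2(TPM + 1) it turned for DROSHA (0.42), DGCR8 (0.054), TARBP2 (0.044), POP1 (0.21), POP4 (0.15), RPP30 (0.11), ELAC1 (0.14), ELAC2 (0.0071), TSEN34 (0.030), TSEN54 (0.27), RTCB (0.032) and NSUN2 (0.23). The DICER1 to DROSHA ratio turned to 0.38 on counts, also per union exon length. The cause was not tested. With 1 library left out, estimates that changed sign ranged as follows: POP5 -0.013 to 0.32, RPP38 -0.079 to 0.20, ALKBH3 -0.17 to 0.18, AGO3 -0.15 to 0.41, RPP14 -0.12 to 0.33, SSB -0.21 to 0.37, TRMT10A -0.22 to 0.14, AGO1 -0.30 to 0.72, ANG -0.69 to 0.040, TRDMT1 -0.25 to 0.62. The TNRC6A share differed by -4.44 to 3.34 percentage points, the log2 RNH1 to ANG ratio by -0.73 to 0.20, and the log2 DICER1 to DROSHA ratio by -0.33 to 0.0047. The settings on TPM in place of counts, the summed loci and the union exon lengths were chosen after seeing the data. FPKM gave the same shares and ratios as TPM.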
